A study of Mus musculus with 95 samples.

Results

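Blood stem cells (HSC) were set against HPC-2, a population of progenitor cells, both sorted from the bone marrow of untreated mice. The comparison holds 7 HSC libraries (replicates 2 to 8) and 5 HPC-2 libraries (replicates 1, 2, 3, 4 and 6), 12 of the 95 libraries of the series. They were chosen by title. HSC replicate 1 and HPC-2 replicates 5 and 7 were left out because the counts of each nearly equal those of a library under another label. All 12 libraries came from B6.SJL mice aged 8 to 12 weeks that had received no treatment, and neither population carries a transgene or a deletion. RNA of the sorted cells was copied and amplified in bulk with SMART-Seq v4, a method for small amounts of RNA, and sequenced after Nextera XT library preparation. The labels do not say how many cells or animals stand behind a library, and each p then covers only the spread among these libraries, which may be technical. A sort for live lineage-negative Sca-1+ Kit+ cells that are CD48- and CD150+ is given in the same words for every population, so the gate that separated HPC-2 from HSC was not given in the sources used here. The rest of the series follows these populations, and HPC-1, after transplant into irradiated mice.

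HSC are known for long-term self-renewal and for dividing rarely. In the SLAM scheme they carry CD150 and lack CD48, while HPC-2 carry both CD150 and CD48 and HPC-1 carry CD48 alone. HPC-2 cells are known as short-lived progenitors that divide often and lean towards the platelet and red cell lines. Before a cell copies its DNA, a ring of 6 MCM proteins (Mcm2 to Mcm7) is loaded on each origin of replication and later unwinds it. The genes of that ring are classic targets of the E2F factors that open S phase.

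The totals ranged from 4552549 to 6085790 counts in HSC and from 5373718 to 8117353 counts in HPC-2. At these similar depths the HPC-2 libraries held counts for fewer genes. Genes with at least 1 count numbered 7779 to 14940 in HSC (mean 12381 ± 2986, SD, n = 7) and 3827 to 11611 in HPC-2 (mean 7891 ± 3053, SD, n = 5). The difference of 4490 genes gave p = 0.0316 in a two-sided exact permutation test of the population labels over the 12 libraries. It did not pass without HSC replicate 2, 4, 5, 6 or 7 or HPC-2 replicate 1 or 6 (p up to 0.0818). Only HPC-2 replicate 2 passed 10000 detected genes in its group, against 5 of 7 HSC libraries. For this reason genes with a mean of the 2 population means of at least 50 CPM are called well expressed, CPM being a gene's count scaled to its library's total, and come first.

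**Figure D1:**
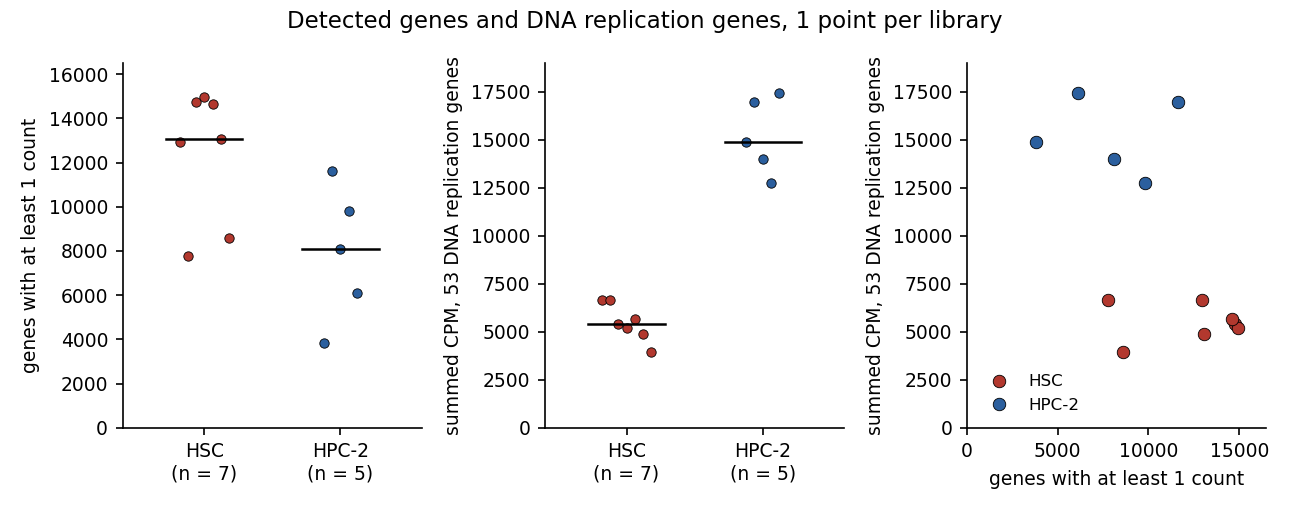
Genes with at least 1 count (left), the summed CPM of 53 DNA replication genes (middle) and the second against the first (right), with 1 point per library and the median as a line, HSC in red and HPC-2 in blue. The detected genes of the populations overlap, while the summed replication genes lie between 3929 and 6643 CPM in HSC and between 12741 and 17433 CPM in HPC-2.

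The genes that define the sort were read first, as a check of the labels. Cd48 had 0, 1.05, 4.39, 23.004, 0.531, 60.2 and 0.439 CPM in the 7 HSC libraries, against 504, 360.4, 344, 220.2 and 310.1 CPM in the 5 HPC-2 libraries. Every HPC-2 library stood above every HSC library, so Cd48 mRNA was low in HSC and high in HPC-2, the order that the SLAM scheme gives the surface antigen. The edgeR quasi-likelihood test gave a log2 change of -4.32 ± 1.40 (SE) with an adjusted p of 0.115, which is not a call, and RLE scaling gave 0.0596. DESeq2 (adjusted p = 0.00289) and limma voom (adjusted p = 0.00546) called Cd48 lower in HSC. Slamf1, which codes for CD150, had 8.67 to 171 CPM in HSC, against 0, 112, 0.155, 51.7 and 0 CPM in HPC-2. Its mRNA was thus at or near 0 in 3 of 5 HPC-2 libraries, and the groups overlapped (adjusted p = 0.914). In 8 HPC-1 libraries, 1 of which nearly equals a left-out HPC-2 library, Slamf1 had at most 3.28 CPM. Kit, the stem cell factor receptor, had 122 to 517 CPM in HSC, against 0, 105, 16.6, 10.4 and 120.1 CPM in HPC-2, with no overlap and no call (adjusted p = 0.431). Ly6a, which codes for Sca-1, had 227 to 796 CPM in HSC, against 2207, 51.9, 37.7, 0 and 0 CPM in HPC-2. Kit and Ly6a are both required by the sort, and each had no count in at least 1 HPC-2 library.

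As a background for genes with no count in HPC-2, the same was counted over all genes of like level in HSC. Of 3906 genes with an HSC mean of at least 50 CPM, 58.2% had no count in HPC-2 replicate 1, 2.36% in replicate 2, 13.0% in replicate 3, 5.99% in replicate 4 and 33.0% in replicate 6. No count in all 5 HPC-2 libraries was found for 27 of the 3906 genes (0.691%). In such bulk libraries, fewer cells of a type and less RNA per cell cannot be told apart.

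Over all 9975 genes that passed the expression filter, 481 were called at an adjusted p under 0.05 (4.82%), 472 of them higher in HSC (4.73%) and 9 lower (0.0902%). Among the 4269 well-expressed genes tested, 75 were called (1.76%), 66 higher in HSC (1.55%) and 9 lower (0.211%). Of the 472 genes called higher, 365 had no count in any HPC-2 library, so they passed the expression filter through HSC alone. The filter asks for enough counts in as many libraries as the smaller group holds. A gene seen in HSC alone thus needs 5 of 7 libraries, while one seen in HPC-2 alone needs all 5. This favours genes higher in HSC among those tested, and its part in the balance of calls was not tested. Most calls (406 of 481) lay under 50 CPM. An unadjusted p under 0.05 was reached by 1092 of all genes tested (10.9%), 964 higher in HSC (9.66%) and 128 lower (1.28%). Counted without a model, 365 of all tested genes (3.66%) and 168 well-expressed genes (3.94%) had every HSC library above every HPC-2 library, and 96 (0.962%) and 93 (2.18%) had every HSC library below.

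The balance of higher and lower calls also depended on scaling. With the RLE scaling of DESeq2 in the same edgeR test, 297 genes were called (2.98%), 256 higher in HSC (2.57%) and 41 lower (0.411%). Among them 69 well-expressed genes were called (1.62%): 28 well-expressed genes were called higher (0.656%) and 41 lower (0.96%). RLE moved the median log2 change of all genes tested by -0.40: it was 0.12 with RLE and 0.52 with TMM scaling. All 9 genes called lower were called lower under both scalings, and in each of the 9 the populations did not overlap. The calls also rested on few libraries: edgeR made none without HSC replicate 2, 4, 6 or 7 (674 to 764 genes at an unadjusted p under 0.05), 6 without HSC replicate 5, 1 without HPC-2 replicate 3 or 4, 35 without HPC-2 replicate 1, 21 without HPC-2 replicate 6 and 1140 without HPC-2 replicate 2. Among well-expressed genes 47 were called without HSC replicate 3 and 44 without HSC replicate 8.

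**Figure D2:**
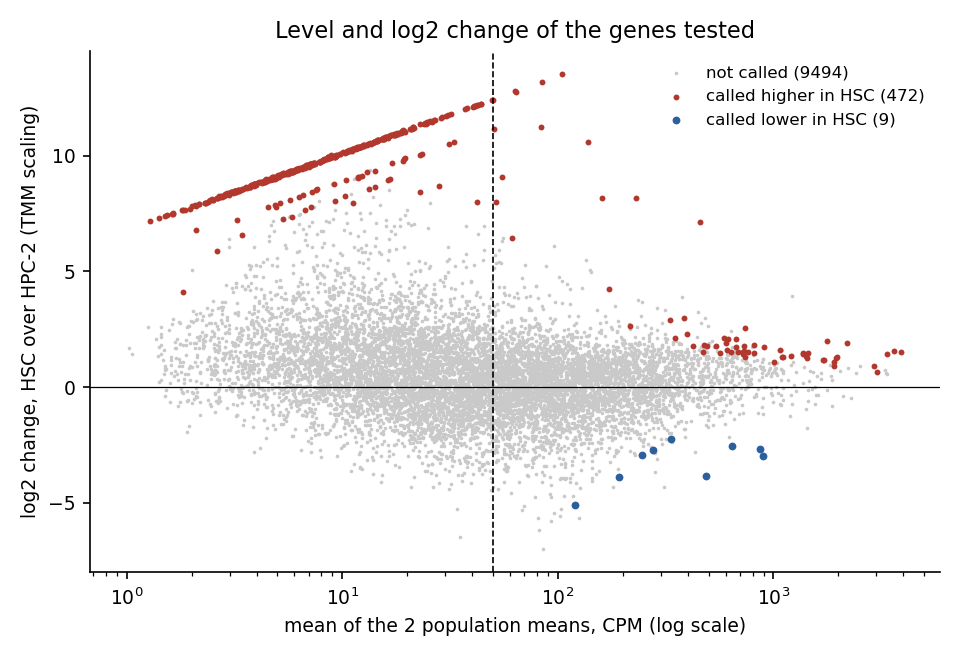
The mean of the 2 population means in CPM (log axis) against the log2 change, HSC over HPC-2, with 1 point per gene tested, 472 genes called higher in HSC in red and 9 called lower in blue, and the 50 CPM line dashed. The band of red points rising to the right holds genes with no HPC-2 count, whose fitted change follows their HSC level, while the 9 blue points all lie right of the line.

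Of the 6 genes of the MCM ring, 3 were called lower in HSC. As the text turns on these genes, the RefSeq promoter windows of Mcm6 and Mcm7 are shown (GRCm38.p6, 250 bases before to 50 after the start, written along the gene). The Mcm6 window is chr1:128359656-128359955 and the Mcm7 window is chr5:138171834-138172133, both on the minus strand. Capitals mark the E2F-type motifs TTTCCCGC, TTTGGCGC, TTTCGCGC and TTTGCCGC on either strand, and 1 pair of matches in Mcm6 overlaps.
Mcm6: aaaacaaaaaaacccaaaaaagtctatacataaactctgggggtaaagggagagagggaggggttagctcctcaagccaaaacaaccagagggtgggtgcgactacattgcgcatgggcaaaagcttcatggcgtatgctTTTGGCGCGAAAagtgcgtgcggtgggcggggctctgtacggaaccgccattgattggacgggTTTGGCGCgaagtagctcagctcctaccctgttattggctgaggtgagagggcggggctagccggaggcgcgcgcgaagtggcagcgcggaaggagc
Mcm7: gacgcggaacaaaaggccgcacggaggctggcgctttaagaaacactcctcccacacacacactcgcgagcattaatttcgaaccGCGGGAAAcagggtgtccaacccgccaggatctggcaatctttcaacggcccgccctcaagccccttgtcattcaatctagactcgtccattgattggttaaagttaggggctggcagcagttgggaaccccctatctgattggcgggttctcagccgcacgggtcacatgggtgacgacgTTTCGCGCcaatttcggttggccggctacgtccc

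The Mcm6 window holds 3 matches, the Mcm7 window 2, and the windows of Mcm3 and Mcm5 hold 2 each. The Mcm2 window and a second Mcm7 window hold none of these letters. Among 42 DNA replication genes with a window, 17 (40.5%) hold a match, and among all 27025 genes with a window 704 (2.6%) do. A match is a run of letters and was not tested as a site.

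Mcm4 (GRCm38 chr16:15623897-15637400) codes for a subunit of the MCM ring. It had 56.1, 51.8, 57.4, 75.9, 114, 52.8 and 20.9 CPM in HSC, against 712, 703, 299.6, 507 and 228 CPM in HPC-2. The lowest HPC-2 library stood above the highest HSC library. The log2 change was -2.70 ± 0.62 (SE), adjusted p = 0.0420. Mcm6 (chr1:128331590-128359664), another subunit, had 318, 33.1, 199, 329, 201, 147 and 18.2 CPM in HSC, against 1671, 1485, 457, 953 and 3183 CPM in HPC-2. HSC replicates 3 and 8, the libraries with the fewest detected genes of their group, were lowest, and the groups did not overlap. Mcm6 fell by 2.68 ± 0.63 on the log2 scale (SE, adjusted p = 0.0420). Mcm7 (chr5:138164583-138172422) had 64.7, 32.1, 104, 93.5, 152, 87.1 and 135 CPM in HSC, against 243, 697, 749, 384 and 795 CPM in HPC-2. Again the groups did not overlap, and the log2 change was -2.25 ± 0.57 (SE), adjusted p = 0.0420.

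The other ring subunits gave the same direction without a call. Mcm3 had 12.3 to 134 CPM in HSC and 225 to 969 CPM in HPC-2, with no overlap (log2 change -2.46 ± 0.71, SE, adjusted p = 0.0596). Mcm5 had 0 to 47.9 CPM in HSC and 24.3 to 1230.1 CPM in HPC-2, and only HPC-2 replicate 4 lay within the HSC range (adjusted p = 0.0732). Mcm2 had 13.4 to 151 CPM in HSC and 34.6 to 1253 CPM in HPC-2, with HPC-2 replicates 3 and 4 inside the HSC range (adjusted p = 0.0938). With RLE scaling each of these 3 was called lower (adjusted p 0.0455 to 0.0469).

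Of 53 DNA replication and nucleotide synthesis genes, all tested, 3 were called lower and none higher in HSC, while 46 had a negative log2 change. RLE scaling gave 8 called lower, DESeq2 9 and limma voom 8, and none of these gave one called higher. Over all genes DESeq2 called 72 lower (0.746% of the 9646 genes with an adjusted p) and limma voom 44 (0.441%). At an unadjusted p under 0.05, 12 of the 53 were lower and none higher, beside 1.28% and 9.66% of all genes tested. The median log2 change of the list was -1.59, beside 0.52 over all genes tested, and -1.98 beside 0.12 with RLE scaling. The populations did not overlap for 8 members, all lower in HSC. Every HSC library lay below every HPC-2 library in 0.962% of all genes tested and in 2.18% of the well-expressed genes. Besides Mcm3, Mcm4, Mcm6 and Mcm7 the 8 members were Rpa1, Pola2, Rfc2 and Slbp, named after their values were seen. Rpa1, a subunit of the protein that coats single-stranded DNA, had 1.54 to 58.0 CPM in HSC and 180.5 to 525 CPM in HPC-2. Pola2, of the polymerase that starts new strands, had 0 to 28.3 CPM in HSC and 58.3 to 856 CPM in HPC-2. Rfc2, of the clamp loader, had 43.1 to 468 CPM in HSC and 640.0 to 1195 CPM in HPC-2. Pcna, the sliding clamp itself, did not separate: it had 204 to 600 CPM in HSC and 21.4 to 772 CPM in HPC-2.

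Summed over the list, these genes took 3929 to 6643 CPM in HSC and 12741 to 17433 CPM in HPC-2. HPC-2 replicate 2, with the most detected genes of its group, had 16982 CPM, and HPC-2 replicate 1, with the fewest, had 14881 CPM. HSC replicates 3 and 8, which have the fewest detected genes of their group, gave 6643 and 3929 CPM, the highest and the lowest HSC sums.

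Genes of mitosis gave a less even picture. None of 34 was called in either direction by the edgeR test with TMM or RLE scaling, by DESeq2 or by limma voom, and 1 had an unadjusted p under 0.05. The median log2 change was -0.53, and 27 of 34 were negative. Aurkb, a kinase of chromosome segregation, had 0 to 107 CPM in HSC and 22.99 to 808 CPM in HPC-2 (log2 change -2.57 ± 1.28, SE, adjusted p = 0.519). Pttg1, securin, an inhibitor of sister chromatid separation, had 192 to 498 CPM in HSC, against 0, 73.1, 97.0, 74.2 and 68.0 CPM in HPC-2. It was the 1 gene of the list whose groups did not overlap, and it was higher in HSC without a call (adjusted p = 0.311). Every HSC library lay above every HPC-2 library in 3.66% of all genes tested. Of 37 genes of ribosome biogenesis, none was called by edgeR with TMM scaling, and 30 were negative with a median of -0.87. An unadjusted p under 0.05 was reached by 6 of the 37, 1 higher and 5 lower, beside 9.66% and 1.28% of all genes tested. Summed over the list, these genes took 4925 to 8798 CPM in HSC and 8439 to 11922 CPM in HPC-2. Only HSC replicate 3 lay above the lowest HPC-2 library, replicate 1. RLE scaling gave 3 called lower, DESeq2 2 and limma voom 3. Of 23 genes of the G1 phase, 1 was called higher, beside 4.73% of all genes tested. The list median was 0.04, beside 0.52. The called gene was Foxo1, a transcription factor of the FoxO family, whose groups overlapped. It had 0 to 47.9 CPM in HSC and 1 count in all 5 HPC-2 libraries together. The ratio of the pooled counts was 853 (95% counting interval 153 to 33736).

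**Figure D3:**
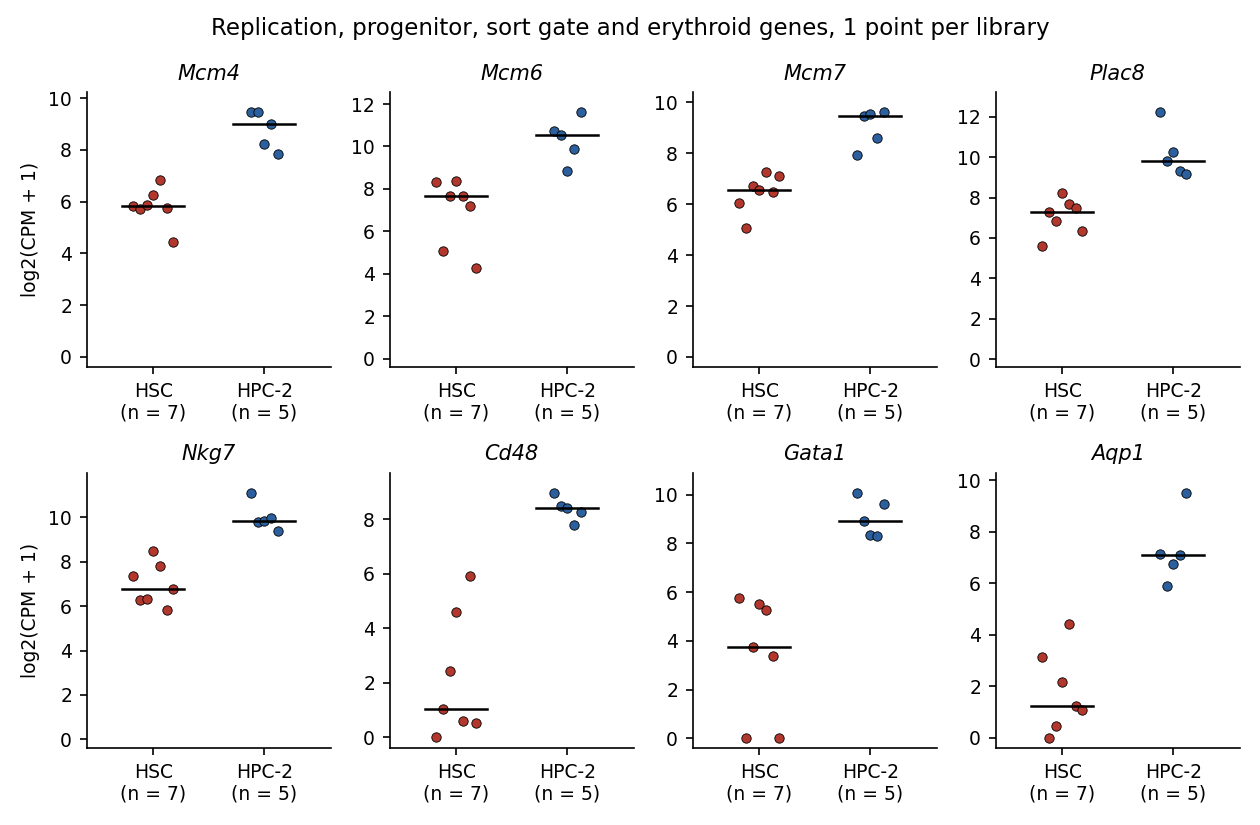
Levels as log2(CPM + 1) of 8 genes in the 7 HSC libraries (red, left) and the 5 HPC-2 libraries (blue, right), with the median as a line. No gene shown has an HSC library as high as its lowest HPC-2 library; edgeR did not call Cd48 and Gata1.

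Plac8 (chr5:100553725-100572245), a small protein of myeloid and lymphoid progenitors, had 47.4, 155, 112, 294, 205, 176 and 79.1 CPM in HSC, against 4877, 890.3, 1238, 630.1 and 576 CPM in HPC-2. HPC-2 replicate 1 stood far above the rest, and all 5 HPC-2 libraries were above all 7 HSC libraries. The log2 change was -2.96 ± 0.56 (SE), adjusted p = 0.0367. Nkg7 (chr7:43437073-43438249), a membrane protein of cytotoxic granules, had 163, 76.7, 78.3, 353, 220.4, 56.6 and 107 CPM in HSC, against 2210.2, 876, 920.2, 1008 and 669 CPM in HPC-2. Its groups did not overlap either (log2 change -2.54 ± 0.51, SE, adjusted p = 0.0420). Of 14 genes of T and NK cells, a list that holds Nkg7, 9 had no count in any of the 12 libraries, Cd3e, Cd3g, Trbc1, Trbc2 and Cd8a among them. The list summed to 56.8 to 354 CPM in HSC and 669 to 2339 CPM in HPC-2, of which Nkg7 was nearly all in HPC-2. In HPC-1 the levels were 1610 to 5988 CPM for Plac8 and 527 to 1044 CPM for Nkg7.

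These were the 2 genes called among 18 tested progenitor genes, whose median log2 change was 0.39. The list did not move as 1 group. Lsp1, a cytoskeletal protein of white cells, and Ccl4, a chemokine, were higher in every HSC library than in any HPC-2 library without a call, while Lgals1, a galectin, was lower in every HSC library.

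Outside the lists, 3 more genes were among the 9 called lower. Stx3, a membrane fusion protein, had 1.72 to 37.7 CPM in HSC, against 1163, 108, 167, 192 and 211 CPM in HPC-2 (log2 change -3.90 ± 0.98, SE, adjusted p = 0.0420). Eif3b, a subunit of a translation initiation factor, had 0.419 to 128 CPM in HSC, against 2410.4, 552.5, 357, 147 and 1176 CPM in HPC-2 (log2 change -3.85 ± 1.06, SE, adjusted p = 0.0495). Rcc2, a regulator of chromosome condensation and cell division, had 16.0 to 77.7 CPM in HSC, against 1218, 195, 261, 91.1 and 491 CPM in HPC-2 (log2 change -2.93 ± 0.76, SE, adjusted p = 0.0442). HPC-2 replicate 1, with 3827 detected genes, was the highest library for all 3. The groups of Stx3, Eif3b and Rcc2 did not overlap, which rests on the lowest HPC-2 library of each and not on replicate 1.

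Among genes of the red cell line, Aqp1 was lower in HSC. Aqp1, the water channel of red cells, had 7.82, 0, 0.366, 3.45, 20.5, 1.33 and 1.10 CPM in HSC, against 139.9, 59.1, 107, 137 and 736 CPM in HPC-2. It was the 1 of 12 tested erythroid genes that was called (log2 change -5.09 ± 1.42, SE, adjusted p = 0.0498). Gata1, the master transcription factor of red cells and platelets, had 53.7, 0, 12.4, 44.0, 37.3, 9.53 and 0 CPM in HSC, against 1079, 478, 325, 315 and 789.9 CPM in HPC-2. Its groups lay far apart, yet edgeR did not call it with TMM (adjusted p = 0.0543) or RLE scaling (adjusted p = 0.0504). DESeq2 (adjusted p = 0.00259) and limma voom (adjusted p = 0.00324) called Gata1 lower. Klf1, its partner in red cells, had 0 to 38.2 CPM in HSC, against 0, 198, 351, 77.7 and 375 CPM in HPC-2. Car1, a carbonic anhydrase of early red cells, had 0.210 to 2733 CPM in HSC and 598 to 5396 CPM in HPC-2, and HSC replicates 2 and 7 lay among the HPC-2 libraries. The median log2 change of the 12 genes was -1.62. DESeq2 called 2 of them lower, Aqp1 and Gata1, and limma voom 4, with Klf1 and Car1 besides. Hbb-bs, an adult globin chain, had 0 to 1569.7 CPM in HSC and 0 to 64.5 CPM in HPC-2, with the highest value in HSC replicate 7, which also had the most Car1.

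Of 22 tested megakaryocyte genes none was called by edgeR with either scaling, by DESeq2 or by limma voom, and 1 had an unadjusted p under 0.05. The median log2 change was -0.16 with 10 positive and 12 negative. Pf4, platelet factor 4, had 240 to 941 CPM in HSC and 41.3 to 1826 CPM in HPC-2. Gng11, a G protein subunit of platelets, was the 1 gene without overlap, with 416 to 803 CPM in HSC, against 159, 66.0, 126, 125 and 0 CPM in HPC-2 (log2 change 2.77 ± 1.00, SE, adjusted p = 0.185). Every HSC library lay above every HPC-2 library in 3.66% of all genes tested.

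Of the stem cell transcription factors, 6 were called higher in HSC. Hlf (GRCm38 chr11:90336536-90390895), a leucine zipper factor needed for HSC maintenance, had 167, 35.4, 213, 164, 275, 415 and 201 CPM in HSC and no count in any of the 5 HPC-2 libraries. Against a floor of 3 counts per library, its mean of 210.1 ± 116 CPM (SD, n = 7) is at least 471-fold higher in HSC (adjusted p = 0.0129). Here and below the floor covers counting error only, so such folds do not bound the difference in mRNA. Kit and Ly6a, both required by the sort, also had no count in some HPC-2 libraries. Mecom, a zinc finger factor of HSC, had 8.38 to 142 CPM in HSC and 1 count in all HPC-2 libraries together. Mllt3, a chromatin reader known to sustain human HSC, had 343, 15.5, 536, 342, 284, 486 and 229 CPM in HSC, against 0, 5.94, 0, 0 and 0 CPM in HPC-2 (adjusted p = 0.0420). HSC replicate 3 was the lowest library for Hlf, Mecom and Mllt3 and still lay above every HPC-2 library. Nkx2-3, a homeobox factor, had 4.42 to 61.9 CPM in HSC and no count in HPC-2, which is at least 63.9-fold higher in HSC.

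The list has 24 tested members. The other 18 were not called, none was called lower, and RLE scaling gave 5 called higher. Over all genes tested 4.73% were called higher with TMM and 2.57% with RLE scaling. The median log2 change was 1.95, beside 0.52 over all genes tested, and 21 of 24 were positive. Prdm16 and Rora were the other 2 called. Several factors used by HSC and progenitors alike had values in the same range in both populations. Meis1 averaged 234 CPM in HSC and 139.9 CPM in HPC-2, Gata2 averaged 119 CPM in HSC and 205 CPM in HPC-2, and Runx1 averaged 87.9 CPM in HSC and 159 CPM in HPC-2, each with overlap and an adjusted p of at least 0.876.

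**Figure D4:**
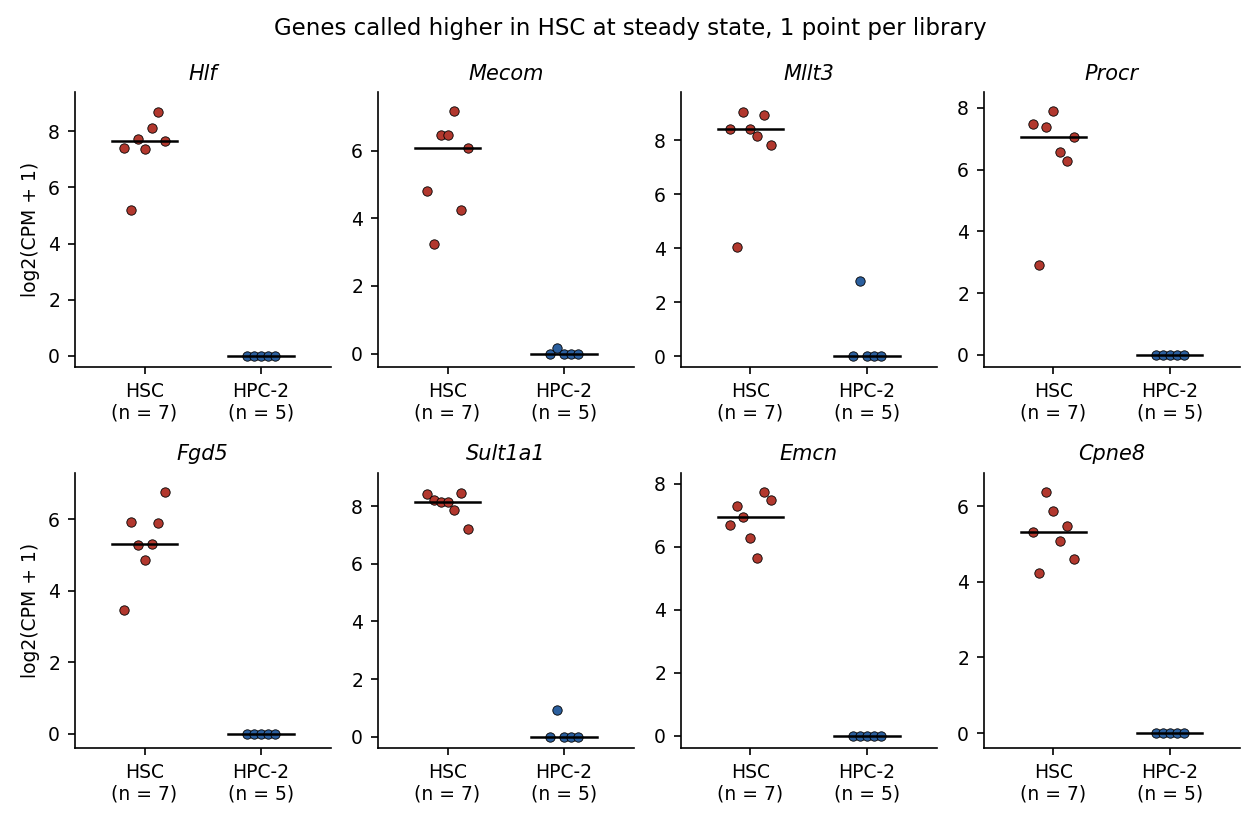
Levels as log2(CPM + 1) of 8 genes called higher in HSC, in the 7 HSC libraries (red, left) and the 5 HPC-2 libraries (blue, right), with the median as a line. Hlf, Procr, Fgd5, Emcn and Cpne8 had no count in any HPC-2 library, and Mecom, Mllt3 and Sult1a1 had counts in 1 of the 5.

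Surface and signalling genes used to mark HSC gave the highest median of the lists drawn in the plot of list medians. Procr (chr2:155751117-155755471), the endothelial protein C receptor, had 178, 6.50, 165, 235, 94.6, 77.4 and 134 CPM in HSC and no count in HPC-2, at least 285-fold higher in HSC (adjusted p = 0.0280). Fgd5 (chr6:91978878-92076004), an exchange factor whose reporter marks HSC, had 9.95, 59.5, 37.9, 28.1, 38.6, 57.9 and 107 CPM in HSC and no count in HPC-2, at least 108-fold higher (adjusted p = 0.0420). HPC-1 was low in both, with at most 21.7 CPM of Procr and 14.8 CPM of Fgd5. Sult1a1, a sulfotransferase, had 344, 295.9, 282, 284, 230.5, 355 and 146 CPM in HSC, against 0, 0.904, 0, 0 and 0 CPM in HPC-2 (adjusted p = 0.0235). The even HSC levels of Sult1a1 include replicates 3 and 8, where many other genes were missing. Fam110c and Cpne8 had no HPC-2 count and were at least 191-fold and 94.2-fold higher in HSC.

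Of 28 tested genes on this list, 10 were called higher and none lower, with 9 under RLE scaling, and 27 were positive. Over all genes tested 4.73% were called higher with TMM and 2.57% with RLE scaling. The median log2 change was 3.51 with TMM and 3.23 with RLE scaling, beside 0.52 and 0.12 over all genes tested. Members with no HPC-2 count passed the filter through HSC alone, which raises the median. Some members were close between the populations: Cd81, a tetraspanin, averaged 707 CPM in HSC and 800.1 CPM in HPC-2, and Txnip, a thioredoxin inhibitor, had 68.7 to 537 CPM in HSC and 75.7 to 816 CPM in HPC-2. Ifitm1, an interferon-induced membrane protein, had 1488 to 3375 CPM in HSC, against 0.372, 166, 637, 72.6 and 0.123 CPM in HPC-2. It was not called (adjusted p = 0.124) although the groups did not overlap. Pdzk1ip1, also called MAP17, had 581 to 935 CPM in HSC, against 306, 111, 93.7, 215 and 0 CPM in HPC-2, again without overlap or call (adjusted p = 0.182).

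The rule for named genes gave further well-expressed genes, in and outside the lists. Emcn, an endothelial sialomucin, had 49.0 to 209 CPM in HSC and no count in HPC-2, at least 285-fold higher (adjusted p = 0.0256). Serpinf1, which codes for a secreted serpin, had 0 to 291 CPM in HSC and no count in HPC-2. It was missing from HSC replicates 3 and 8. Tnip3 had 0.419 to 226 CPM in HSC and 2 counts in all HPC-2 libraries, and Zfp943, a zinc finger gene, had 28.0 to 277 CPM in HSC and 1 count in HPC-2. St3gal6, a sialyltransferase, had 49.1 to 246 CPM in HSC and at most 1.03 CPM in HPC-2. Tfec, a transcription factor of the MiT family, had 1.10 to 214 CPM in HSC and at most 2.07 CPM in HPC-2. Hmga2, a chromatin protein tied to fetal HSC self-renewal, had 55.3 to 257 CPM in HSC, against 9.12, 0.129, 0.155, 0.902 and 0 CPM in HPC-2 (log2 change 6.44 ± 1.68, SE, adjusted p = 0.0446). The populations overlapped for Serpinf1 and for Tfec, whose HSC replicate 8 lay below HPC-2 replicate 2, and for none of the other genes of this paragraph. For Tnip3 the margin was small, since HSC replicate 3 had 0.419 CPM and HPC-2 replicate 4 had 0.301 CPM.

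Of 25 tested genes known to rise in aged HSC, 6 were called higher and none lower, beside 4.73% called higher over all genes tested. The median log2 change was 1.77, and 1.32 with RLE scaling, beside 0.52 and 0.12 over all genes tested. Clu, clusterin, had 24.2 to 193 CPM in HSC and no count in HPC-2, at least 185-fold higher. Jam2, an adhesion molecule that the adhesion list also holds, had 0.629 to 89.0 CPM in HSC and no count in HPC-2. Wwtr1 (0 to 16.8 CPM in HSC) and Tm4sf1 (0 to 113 CPM in HSC) had no count in HPC-2 nor in HPC-1, and their groups overlapped at 0. Vwf and Selp, the platelet-biased ageing markers, did not separate: Vwf had 0 to 95.1 CPM in HSC and 0 to 163 CPM in HPC-2.

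Among genes of antigen presentation, B2m and Cd74 were called higher. B2m, the light chain of class I molecules, had 3741, 5663, 3267, 3434, 4158, 6329 and 5219.9 CPM in HSC, against 2872, 1666, 2496, 2194 and 1569 CPM in HPC-2. Each HSC library was above each HPC-2 library in this gene, which every library detected well, and the log2 change was 1.44 ± 0.24 (SE, adjusted p = 0.0280). RLE scaling gave 0.94 (adjusted p = 0.0373) and limma voom 1.05 (adjusted p = 0.0335). DESeq2 gave 0.94 and did not call B2m (adjusted p = 0.559). Cd74, the invariant chain of class II molecules, had 171 to 879.9 CPM in HSC, against 0, 5.94, 0.155, 2.40 and 0 CPM in HPC-2 (log2 change 8.17 ± 1.49, SE, adjusted p = 0.0348). It was the 1 of 6 tested dendritic cell genes called, and Siglech, a defining marker of plasmacytoid dendritic cells, had no count in any library. The class II chain genes H2-Aa, H2-Eb1 and H2-Ab1 overlapped and were not called by edgeR (adjusted p 0.712 to 0.976). H2-Aa averaged 316 CPM in HSC and 69.8 CPM in HPC-2, while H2-Ab1 was lower in HSC, 131 against 248 CPM. Ifitm3 averaged 1831 CPM in HSC and 1019 CPM in HPC-2 with overlap (adjusted p = 0.0499), a call that RLE scaling did not give (adjusted p = 0.301). Of 26 tested interferon response genes 3 were called higher, B2m, Ifitm3 and Stat2, while 15 of 26 were negative. Over all genes tested 4.73% were called higher.

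Marker genes of other cells were summed per library. Summed over 12 macrophage genes, the level was 0 to 254 CPM in HSC (median 36.8) and 0 to 14.2 CPM in HPC-2 (median 0.186). Summed over 20 granulocyte and monocyte genes it was 1358 to 8539 CPM in HSC and 0 to 2269 CPM in HPC-2. Mpo, the granule enzyme of granulocyte progenitors, had 1854 CPM in HSC replicate 5 and at most 38.2 CPM in the other 6 HSC libraries, against at most 49.0 CPM in HPC-2. Prtn3, another granule protease, had 203 to 936 CPM in HSC, against 0, 64.2, 66.5, 64.8 and 0 CPM in HPC-2 (adjusted p = 0.207). The lineage antigens removed by the sort summed to 0 to 446 CPM in HSC and 0 to 153 CPM in HPC-2, and 14 stromal genes to 70.4 to 242 CPM in HSC and 0 to 73.2 CPM in HPC-2. On the stromal list only Emcn was called. The lymphoid list summed to 43.8 to 1405 CPM in HSC and 112 to 369.6 CPM in HPC-2, with Il7r, Rag2, Igll1 and Tcf7 at 0 in all 12 libraries. The part of such cells in the results was not tested.

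Genes of the ribosome and of the mitochondrial genome made up much of the well-expressed calls with TMM scaling, 19 and 7 of the 66 higher genes. Counts of ribosomal protein genes took 5.21 to 9.99% of each HSC library and 2.95 to 5.69% of each HPC-2 library. Of 84 tested ribosomal protein genes, 19 were called higher and none lower, 7 with RLE scaling, and 83 had a positive log2 change (80 with RLE). Over all genes tested 4.73% were called higher with TMM and 2.57% with RLE scaling. Rps3a1 had 1688 to 2635 CPM in HSC and 761 to 1678 CPM in HPC-2, so that the highest HPC-2 library was just under the lowest HSC library (log2 change 1.16 ± 0.26, SE, adjusted p = 0.0420). Ribosomal protein genes share sequence with many processed copies, and reads could be split among them, so single values are uncertain. Mitochondrial transcripts took 1.12 to 3.18% of the counts in HSC and 0.410 to 1.42% in HPC-2, and 7 of 16 tested were called higher, 3 with RLE scaling. mt-Rnr1, a ribosomal RNA of mitochondria, averaged 1200.2 ± 676 CPM in HSC (n = 7) and 272 ± 79.2 CPM in HPC-2 (SD, n = 5) with no overlap (log2 change 2.55 ± 0.46, SE, adjusted p = 0.0344).

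Of 52 nuclear genes of oxidative phosphorylation, 41 had a positive log2 change with TMM scaling (median 0.85, beside 0.52 over all genes) and 33 with RLE scaling (median 0.36, beside 0.12). At an unadjusted p under 0.05, 19 were higher and 2 lower, beside 9.66% and 1.28% of all genes tested. By adjusted p, 1 was called higher with TMM (Uqcrh, of complex III, log2 change 1.80 ± 0.49, SE, adjusted p = 0.0495), and 2 were called lower with RLE. Those 2, Atp5a1 and Atp5b, code for the catalytic core of ATP synthase. Atp5b averaged 474 ± 181 CPM in HSC (n = 7) and 1318 ± 623 CPM in HPC-2 (SD, n = 5). DESeq2 called none of the 52, and limma voom called 2 lower. At weeks 5 to 16 edgeR called 18 higher and 3 lower, beside 3.94% and 0.966% of all genes tested there. Of 16 glycolysis genes none was called by edgeR with either scaling, by DESeq2 or by limma voom, none had an unadjusted p under 0.05, and 14 were negative (median -0.52). Of 25 chaperone genes none was called by edgeR with TMM scaling or by DESeq2, 2 had an unadjusted p under 0.05, and limma voom called 1 lower. RLE scaling gave 1 called lower, Cct8, of the chaperonin ring, with 399 to 939.7 CPM in HSC and 1343 to 1599 CPM in HPC-2. Myc, which drives growth and ribosome production, had 84.5 to 335 CPM in HSC, against 1827, 799.8, 193, 243 and 878 CPM in HPC-2 (log2 change -1.64 ± 0.57, SE, adjusted p = 0.157). RLE scaling called Myc lower (log2 change -2.23, adjusted p = 0.0479), while DESeq2 (adjusted p = 0.0794) and limma voom (adjusted p = 0.221) did not.

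**Figure D5:**
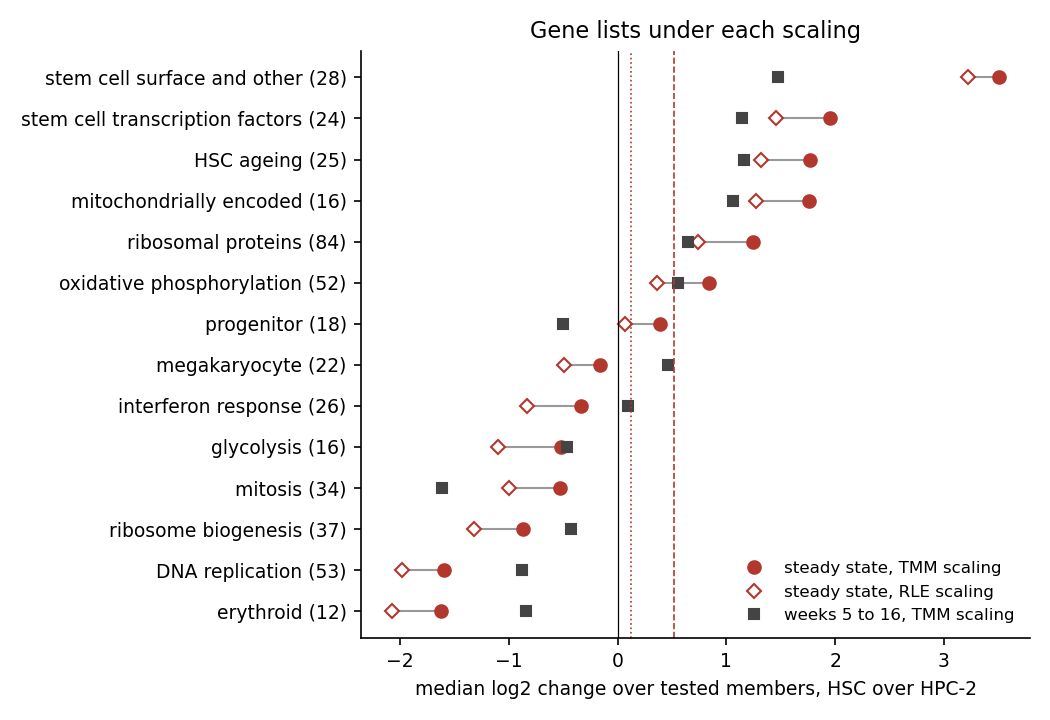
Median log2 change, HSC over HPC-2, over the tested members of 14 gene lists (number of members in brackets) at steady state with TMM scaling (filled circles) and RLE scaling (open diamonds), and at weeks 5 to 16 after transplant (squares). The dashed and dotted lines are the medians of all genes at steady state with TMM (0.52) and RLE (0.12), and the DNA replication list stands at -1.59 and -1.98 while the stem cell surface list stands at 3.51 and 3.23.

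The same contrast was available in libraries that share no sample with the steady-state ones, 17 HSC and 15 HPC-2 libraries sorted 5 to 16 weeks after Lin-Sca-1+Kit+ cells were transplanted into irradiated mice. With week as a factor, 498 of 10144 genes were called (4.91%), 400 higher in HSC (3.94%) and 98 lower (0.966%). Of the 472 genes called higher at steady state, 342 were tested there, 291 had the same sign and 87 were called higher, which is 18.4% of the steady-state calls and 21.8% of the later calls. All 9 genes called lower at steady state had a negative log2 change at weeks 5 to 16, and 3 of them, Mcm6, Mcm7 and Nkg7, were called. No gene was called in opposite directions.

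Cd48, which edgeR did not call at steady state, was called by edgeR lower in HSC at weeks 5 to 16 (log2 change -3.80 ± 0.84, SE, adjusted p = 0.00846). Procr, Sult1a1, Mllt3, Hmga2, B2m, Il4 and Clu were among the genes called higher in both settings. Ribosomal protein genes were called higher in 47 of 84 cases with none lower, beside 3.94% of all genes tested there. Gata1 (log2 change -2.17, adjusted p = 0.0115), Klf1, Mfsd2b and Car1 were called lower in HSC at weeks 5 to 16, 4 of 11 tested erythroid genes. Of 34 mitosis genes 9 were called lower there, and of 52 DNA replication genes 3, beside 0.966% of all genes tested there.

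Plac8 and Hlf were 2 of 99 genes, of 13372 tested, whose change differed between the settings in 1 edgeR fit of both. Both were among the called genes with the largest steady-state change, so a smaller change later is partly expected from that choice. Plac8 had 47.4 to 294 CPM in HSC and 576 to 4877 CPM in HPC-2 at steady state, and 174 to 1596 CPM in HSC and 350.4 to 3114 CPM in HPC-2 at weeks 5 to 16. Its log2 change at the later weeks was -0.59 ± 0.28 (SE, adjusted p = 0.275), and the difference between the settings, steady state minus later weeks, was -2.51 (adjusted p = 0.0257). Hlf had counts in 14 of 15 HPC-2 libraries at weeks 5 to 16, with a median of 16.8 CPM, against a median of 82.3 CPM in HSC (log2 change 1.90 ± 0.53, SE, adjusted p = 0.0325). Fgd5, at 0 in all 5 steady-state HPC-2 libraries, was at 0 in 14 of 15 HPC-2 libraries at weeks 5 to 16, with a highest value of 11.2 CPM, against a highest value of 45.7 CPM in HSC.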

How the data were processed

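RNA of sorted HSC and HPC-2 was measured by bulk RNA sequencing. Per the submitters' processing notes, the authors used Trimmomatic 0.36, HISAT2 2.0.5, Picard and featureCounts with GRCm38 (mm10). The deposited values are raw counts per gene, 53465 entries in 95 libraries. The strand setting was not given in the sources used here, so overlapping and antisense genes are uncertain.

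Levels are CPM, a gene's count scaled to its library's total, computed from the deposited counts. edgeR 4.0.16 in R 4.3.3 was used: filterByExpr, TMM scaling, a quasi-likelihood F test of the 12 libraries with no covariate, and Benjamini-Hochberg adjustment over all genes tested, called at an adjusted p under 0.05. Weeks 5 to 16 were fitted in the same way with week as a factor, after 3 near-duplicate HPC-2 libraries were left out. The counts of every library were set against those of every other with a chi-square statistic, which was 2.01 to 4.50 per degree of freedom between each of the 3 libraries left out here and its near copy, and 41.0 to 1188 for the 66 pairs among the 12. Folds against HPC-2 libraries with no count use a floor of 3 counts per library, and ratios of pooled counts have exact intervals at 95%. Intervals and floors cover counting error only. Alternatives were DESeq2 1.42.0, limma 3.58.1 (voom with sample weights), other scalings, filters, library sets, blocks and covariates. RefSeq promoter windows were searched by a script, and Mcm4 has none in the table used. Figures were drawn with matplotlib 3.10.9.

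Genes were named by a rule: the markers of the comparison and of the sort, the 12 called well-expressed genes with the largest change in each direction (without genes lacking a symbol, predicted genes with Gm or Rik names, and processed copies), up to 4 called or 2 uncalled genes per list, and up to 6 with no HPC-2 count. Other list members were named after their values were seen. The members, lists and rules were chosen with earlier results of these data known. The lists of ribosomal protein and mitochondrial genes were added after the data were seen.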

Additional observations from a re-analysis of the deposited data

Results flagged for a closer look

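The highest and the lowest library were checked against the rest of their group for 64 groups of values. These were values of named genes and of library measures such as total counts and detected genes. Of them 17 lay apart, all of named genes, 12 in HPC-2 and 5 in HSC. The usual rate of 1 in 20 holds for normally distributed values and is no measure here. A group with counts in 1 library alone always lies apart, and a group with no count in any library never can. Of these 17, 5 were HPC-2 replicate 1, the library with the fewest detected genes: Plac8 (4877 CPM, next 1238), Nkg7 (2210.2 CPM, next 1008), Ly6a (2207 CPM, next 51.9), Stx3 (1163 CPM, next 211) and Hmga2 (9.12 CPM, next 0.902). Sult1a1 (0.904 CPM), St3gal6 (1.03 CPM), Mllt3 (5.94 CPM) and Tfec (2.07 CPM) were detected in HPC-2 replicate 2 alone of its group, the library with the most detected genes. HPC-2 replicate 4 alone had counts of Tnip3 (0.301 CPM) and Zfp943 (0.150 CPM), and HPC-2 replicate 6 had 736 CPM of Aqp1, where the next library had 139.9. In HSC, replicate 7 was apart for Cd48 (60.2 CPM) and Ly6a (796 CPM), replicate 6 for Aqp1 (20.5 CPM), and replicate 3 for Zfp943 (277 CPM, high) and Tnip3 (0.419 CPM, low).

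An edgeR fit with an interaction term set the change between HSC and HPC-2 at steady state against that at weeks 5 to 16. It called 99 of the 13372 genes tested, and 9 of the 68 named genes. Apart from the markers of the comparison and of the sort, the named genes were chosen by their steady-state values. A larger change at steady state is thus partly expected from that choice, and the 9 are no independent result. The difference in log2 change, steady state minus later weeks, was -2.51 for Plac8 (adjusted p = 0.0257). It was 11.47 for Hlf (adjusted p = 1.95e-05), 10.38 for Emcn (0.0257), 9.65 for Tnip3 (0.00627), 10.30 for Zfp943 (0.00665), 10.60 for Insr (0.0379), 10.14 for Stat2 (0.0257), 9.83 for Fam110c (0.0215) and 8.31 for Mecom (0.0196). These 8 genes had at most 2 counts in all 5 steady-state HPC-2 libraries, so their fitted differences depend on the prior count and are no bound.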

How the results depend on the processing

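The counts of calls depended on the processing, and the cause was not tested. Against 481 calls over all genes, 75 among well-expressed genes and 39 among list members, RLE scaling gave 297 over all genes, total counts alone 290 and 47 well expressed, and limma voom 739, 114 and 68. Fitting every gene without a filter gave 10, 7 and 6, and fitting only genes of at least 50 CPM gave 11, 11 and 8. Detected genes as a covariate gave 102, 21 and 17. Without HPC-2 replicates 1 and 6 (added after seeing the data, like total counts alone) there were 41, 24 and 20. Without libraries of under 10000 detected genes, which leaves HPC-2 replicate 2 alone and assumes that it varies like the HSC libraries, there were 109 and 41. With all 15 labelled libraries there were 3, 1 and 2, and with HPC-1 added to the fit 1645, 258 and 103. DESeq2 gave 639, 97 and 51. Leaving out 1 library gave 0 to 1140, 0 to 80 and 0 to 56. Whether replicate numbers pair the samples could not be told from 4 pairs. The correlation of deviations was -0.03 to 0.19 for 4 pairs by title. It was -0.09 to -0.0027 for 4 pairs by description and -0.15 to 0.14 for 27 others. HPC-2 replicates 2, 3 and 6 correlated most with the HSC library of the same title number (0.19, 0.08 and 0.14). HPC-2 replicate 4 did not (-0.03). The edgeR fit with a replicate block gave 0, 0 and 0 with either numbering, with 642, 311 and 75 genes (title) and 486, 211 and 55 (description) at an unadjusted p under 0.05.

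The 498 calls of weeks 5 to 16 became 1248 with DESeq2, 925 with limma voom, 1168 without a filter and 14 to 251 without 1 replicate number, lowest without replicate 3. The difference in detected genes was 3774 at a minimum of 5 counts (exact permutation p = 0.0505), 2671 with all 15 libraries (exact permutation p = 0.134), and 3474 to 5419.8 without 1 library. Over 68 named genes and 25 settings, 19 of 1625 log2 changes reversed, of genes not called here. Ly6a was -0.24 with RLE scaling, -0.24 with DESeq2, -0.28 with total counts alone, and -0.21 to 4.23 without 1 library, with a reversed sign without HPC-2 replicate 2 (-0.17), 3 (-0.18), 4 (-0.21) or 6 (-0.07). Pfkp was 4.30 with limma voom and 2.18 with the description block. Mpo was -0.40 with DESeq2, -6.50 with the covariate and -0.27 with all 15 libraries, and Cd68 was -0.47 and -0.98 in the last 2 of these. The covariate gave -4.26 for Ly6c2 and -2.99 for C1qb, all 15 libraries gave -2.18 for Satb1, and leaving out libraries of under 10000 detected genes gave -0.25 for Slamf1 and -0.38 for Vpreb1. Of the others, 988 kept side and direction, 594 were no longer called and 24 became called.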

Other observations

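Several granule and immunoglobulin genes were seen in a few HSC libraries. Elane, the neutrophil elastase, had counts in 3 of 7 HSC libraries, with up to 2388 CPM, and in none of 5 HPC-2 libraries. Ctsg, another granule protease, had counts in 3 HSC libraries (up to 455 CPM) and in 1 HPC-2 library (18.2 CPM). Ighm, the immunoglobulin heavy chain, had counts in 3 HSC libraries (up to 1038 CPM) and in none of HPC-2. None of these 3 genes passed the expression filter. Flt3, a receptor of early multipotent progenitors, had at most 9.20 CPM in HSC, with counts in 5 libraries, and none in HPC-2.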
